A study of Mus musculus with 4 samples.

Results

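AP-1 is a family of dimeric transcription factors, and 9 of its genes were followed here in mouse B cells that lacked Aff3 or carried 1 intact copy of it: Fos, Fosb, Fosl2, Jun, Junb, Jund, Batf, Batf3 and Atf3. All gene probes whose RefSeq transcript accession belongs to one of these symbols were taken, which gave 10 probes of 39429 on the array, with Fosl2 represented by 2 probes and every other gene by 1. All 9 genes passed the filter on dim probes, and they are 9 of the 20632 features tested.

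The series compared Aff3-/- with Aff3+/- mice, 2 arrays each. CD43-negative B cells from spleen of both groups were kept in culture for 3 days. LPS (10 ug/mL), which stimulates TLR4, and IL-4 (10 ng/mL), which directs class switching in LPS-activated cells, were given to both groups, so no value describes resting cells. The comparison carries no wild-type or unstimulated sample, and the labels state neither the kind of Aff3 allele nor whether separate mice gave the replicates. The p-values therefore reflect how far these 4 samples spread, which may be technical.

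AP-1 proteins carry a basic region that touches DNA and a leucine zipper through which 2 chains pair. Jun proteins pair with themselves or with Fos proteins, and Fos proteins need a partner. Batf proteins lack the transactivation domain of Fos, pair with Jun proteins and bind with IRF4 or IRF8 at composite sites, and Batf is required for class switching in mouse B cells. Fos, Fosb, Junb and Atf3 are early genes, transcribed briefly after a stimulus, whereas Jund is expressed more steadily.

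The start regions of the FOS subfamily are shown because these 3 genes varied most between arrays, Fos and Fosl2 in one direction and Fosb in the other. Each stretch runs from 250 bases before to 50 bases after the RefSeq start (GRCm38.p6). Capitals mark TGACG, the core of the cAMP response element, on either strand and the TATA box TATAAA. The Fos window is chr12:85473640-85473939 on the + strand, the Fosb window chr7:19309996-19310295 on the - strand, and the Fosl2 window chr5:32136222-32136521 on the + strand.
Fos: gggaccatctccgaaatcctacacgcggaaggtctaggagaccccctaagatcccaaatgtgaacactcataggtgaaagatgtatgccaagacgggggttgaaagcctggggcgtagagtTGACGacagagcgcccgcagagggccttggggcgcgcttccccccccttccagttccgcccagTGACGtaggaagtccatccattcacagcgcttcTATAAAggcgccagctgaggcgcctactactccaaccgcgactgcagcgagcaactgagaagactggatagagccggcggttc
Fosb: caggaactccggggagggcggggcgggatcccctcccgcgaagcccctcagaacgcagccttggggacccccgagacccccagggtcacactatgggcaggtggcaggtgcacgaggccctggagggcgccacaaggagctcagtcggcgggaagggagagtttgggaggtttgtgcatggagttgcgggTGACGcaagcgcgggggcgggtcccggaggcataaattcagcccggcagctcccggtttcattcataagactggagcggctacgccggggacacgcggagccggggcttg
Fosl2: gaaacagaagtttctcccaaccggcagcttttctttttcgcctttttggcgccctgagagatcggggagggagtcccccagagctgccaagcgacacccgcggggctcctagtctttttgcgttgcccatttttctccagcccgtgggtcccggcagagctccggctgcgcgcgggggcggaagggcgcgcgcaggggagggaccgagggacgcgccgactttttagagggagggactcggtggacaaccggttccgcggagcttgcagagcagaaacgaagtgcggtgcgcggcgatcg

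Fos held TGACG at positions -129 to -125 and -66 to -62 and a TATA box at -33 to -28, counted from the start. Fosb held TGACG at -60 to -56, and Fosl2 had none of these letters in its window. Over the windows of all 9 genes, TGACG occurred in 5 (Fos, Fosb, Junb, Batf and Atf3), against 20.8% of 32851 mouse windows of the same length. TATAAA occurred in Fos and Junb, against 13.6% of the windows. In Junb it lay at positions 1 to 6, beginning at the annotated start itself. The full cAMP response element TGACGTCA, which contains TGACG, occurred in none of the 9 and in 1.79% of windows, and the AP-1 site TGACTCA in none and in 5.20%. Its variant TGACATCA occurred in Jun only (3.62% of windows), the serum response or CArG box in none (1.63%), the GC box GGGCGG in 7 (35.7%) and CCAAT in 3 (37.4%). All motifs were searched on both strands, and a match is not evidence of binding. Sites outside these short windows were not searched, so a motif absent here, such as the CArG box, may lie further from the start.

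Across the arrays 24942 to 25862 probes were well above background and no gene spot was saturated. The 2 arrays per genotype limit the precision. All 7 B cell markers searched were well above background on the 4 arrays. Of 8 T cell markers 6 were so too, with Cd3g on no array. Of the 5 macrophage markers on the array 4 were, with Lyz2 on none. The neutrophil markers S100a8, S100a9 and Mpo were not well above background on any array, and of the 4 NK cell markers only Gzma was. Aff3 itself was not analysed here, because no probe carried one of its 7 RefSeq accessions, and the genotypes rest on the labels.

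No AP-1 gene differed between the genotypes beyond the error (limma, Benjamini-Hochberg adjusted p = 1.00 for each of the 9, two-sided), and 0% of all features did so. All 9 differences were positive, although those of Fos, Fosb, Fosl2, Jun and Batf turned negative when some single arrays were left out and that of Fosb did so with another background correction. They had a median of +0.15 on the log2 scale (Aff3-/- minus Aff3+/-, range +0.05 to +0.46), where 45.5% of all features were positive and the median over all features was -0.01. For Batf3, Atf3 and Jund the lower Aff3-/- array still exceeded the higher Aff3+/- array, so 3 of 9 genes were higher without overlap, against 8.35% of all features. None of the 9 was lower without overlap, against 11.2% of features. Batf3 had an unadjusted p under 0.05, as did 2.04% of features. The members were chosen with earlier results of these data known, so these counts describe the genes and are not independent support. In such bulk samples fewer cells expressing a gene and less RNA per cell cannot be told apart.

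**Figure D1:**
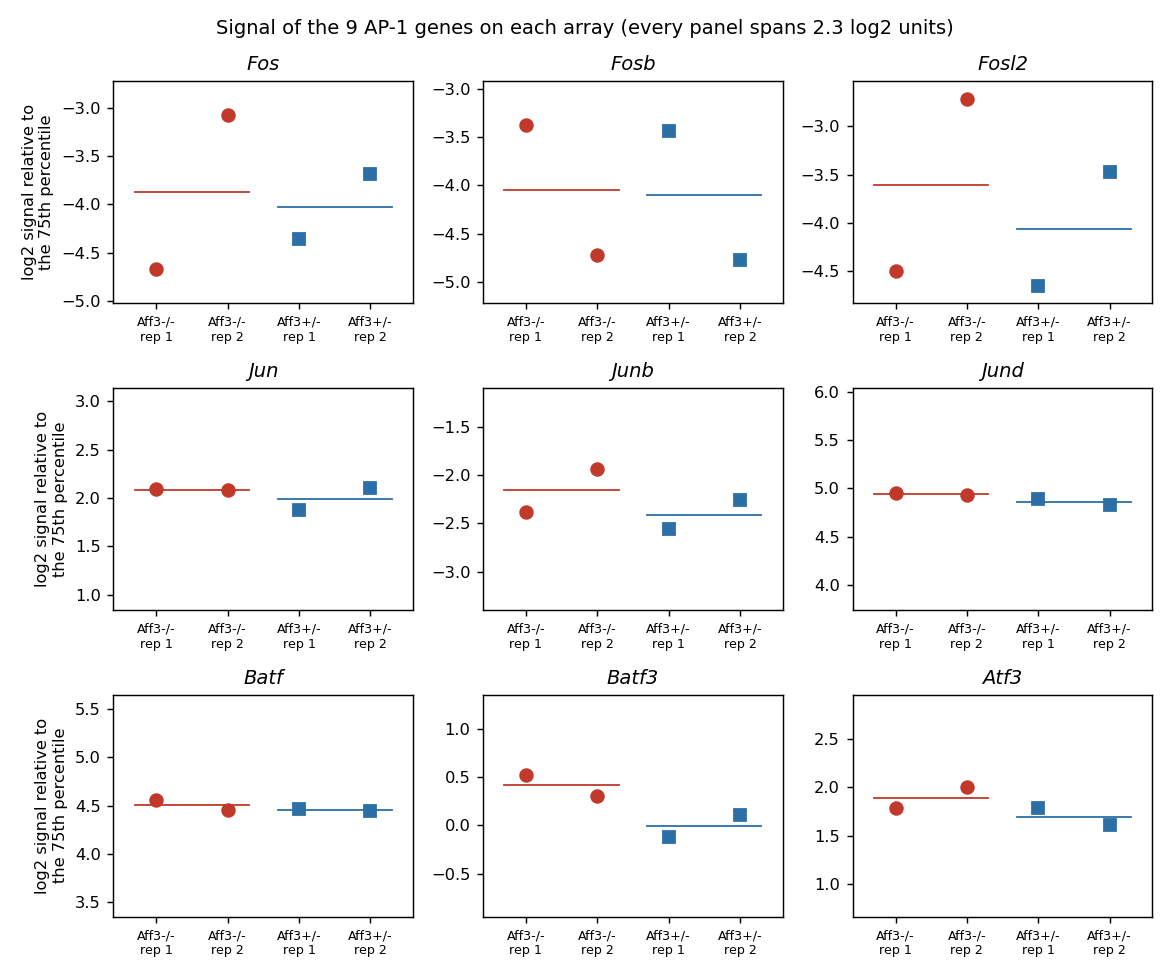
Log2 signal of the probe tested for each AP-1 gene, relative to the array's 75th percentile, on the 2 Aff3-/- arrays (circles) and the 2 Aff3+/- arrays (squares), with a line at each genotype's mean. Fos and Fosl2 lie higher on the replicate 2 arrays of both genotypes and Fosb lower, whereas Jund and Batf span under 0.2 over the 4 arrays.

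Fos, the founding member and a classic early gene, had processed signals of 51.9 and 153 intensity units in Aff3-/- replicates 1 and 2, against 62.1 and 105 in Aff3+/- replicates 1 and 2. The genotypes overlapped fully, since the lowest and the highest array were both Aff3-/-. On the log2 scale, relative to each array's 75th percentile, Fos averaged -3.87 ± 1.13 in Aff3-/- and -4.02 ± 0.48 in Aff3+/- cells (SD, n = 2 each). The difference was +0.15 ± 0.58 (SE), with a 95% interval of -1.39 to 1.70, that is from 0.380-fold to 3.24-fold. With normexp background correction it was +0.09.

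The Fos probe was printed 10 times on each array, and the signals above are geometric means over those spots. The spread between spots of 1 array can therefore be read directly. In Aff3-/- cells the 10 spots ran from 47.9 to 63.4 units on replicate 1 and from 141 to 160 on replicate 2. In Aff3+/- cells they ran from 52.7 to 69.1 on replicate 1 and from 94.0 to 128 on replicate 2. Every replicate 2 spot thus exceeded every replicate 1 spot in both genotypes. The SD over the 10 spots was 0.06 to 0.13 (log2), smaller than the 1.60 between the Aff3-/- arrays and the 0.68 between the Aff3+/- arrays. These spots share 1 hybridised sample per array and say nothing of the spread between hybridisations or between cultures. The Fosb probe and each Fosl2 probe had 1 spot per array, so no spread between spots can be read for them.

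**Figure D2:**
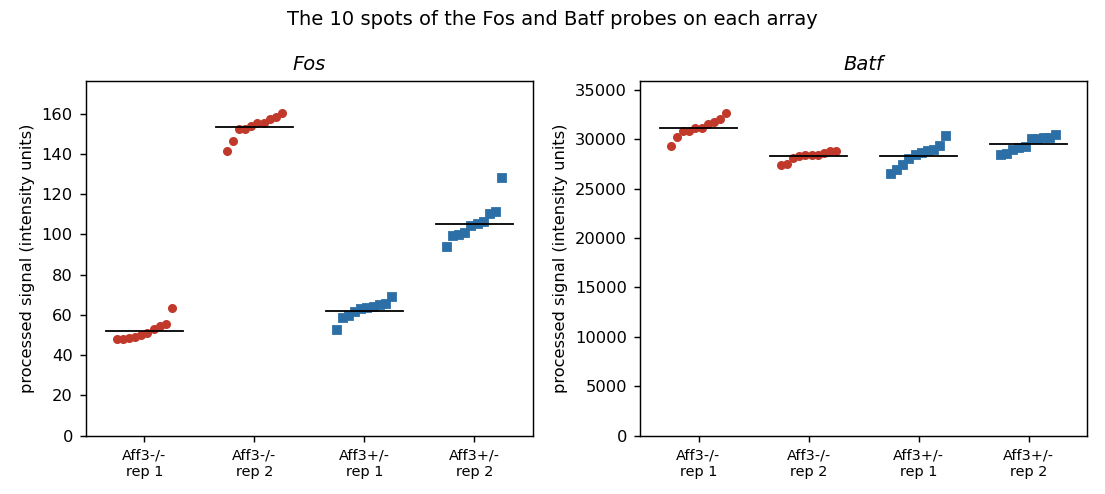
Processed signal (intensity units, axis from 0) of the 10 spots of the Fos probe (left) and of the Batf probe (right) on each array, Aff3-/- as circles and Aff3+/- as squares, with a line at the geometric mean. Fos spots of the replicate 2 arrays all lie above those of the replicate 1 arrays, and Batf spots of the 4 arrays lie between 26473 and 32616.

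Fosl2, which encodes the Fos-related protein Fra-2, had 58.6 and 197 units on Aff3-/- replicates 1 and 2 and 50.9 and 122 units on Aff3+/- replicates 1 and 2. Both replicate 2 arrays were again the highest, and within each replicate number the Aff3-/- array was the higher. The difference between genotypes was +0.46 ± 0.71 (log2, SE), with a 95% interval of -1.43 to 2.34. With normexp background correction it was +0.21. A second Fosl2 probe was not well above background on either replicate 1 array, which kept it out of the test. It read 5.70 and 11.1 units on Aff3-/- replicates 1 and 2, against 4.14 and 8.08 units on Aff3+/- replicates 1 and 2. Its replicate 1 values are bounds only, so no difference is drawn from it.

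Fosb, a close relative of Fos, ran the other way between the replicates. It had 128 and 48.7 units on Aff3-/- replicates 1 and 2, against 118 and 49.7 units on Aff3+/- replicates 1 and 2. After scaling to each array's 75th percentile, replicate 1 was 2.56-fold brighter than replicate 2 in Aff3-/- cells and 2.51-fold brighter in Aff3+/- cells. On the same scale the genotypes differed by +0.06 ± 0.64 (log2, SE; 95% interval -1.63 to 1.74), with +0.07 between the replicate 1 arrays and +0.04 between the replicate 2 arrays.

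Such spans were uncommon on these arrays. The 4 arrays spanned 1.60 (log2) for Fos, 1.40 for Fosb and 1.94 for Fosl2, against a median of 0.30 over all features. A span at least as wide was seen in 1.01%, 1.57% and 0.436% of all features for Fos, Fosb and Fosl2. Among features within 0.5 (log2) of each gene's own mean signal the shares were 1.06%, 1.81% and 0.319%. The order alone was common, since 31.1% of features had both replicate 2 arrays above both replicate 1 arrays and 33.2% had them below. The summed macrophage markers were 7.85 and 7.18 on Aff3-/- replicates 1 and 2, against 8.63 and 7.44 on Aff3+/- replicates 1 and 2 (linear signal relative to the 75th percentile), mostly from Itgam, and so were lower on both replicate 2 arrays. The B cell sum was also lower on replicate 2, at 0.874 and 0.953 of replicate 1 in Aff3-/- and Aff3+/- cells, as were the T cell sum (0.927 and 0.933) and the stromal sum (0.841 and 0.818). The NK cell sum was higher on replicate 2, at 0.0105 and 0.0158 in Aff3-/- replicates 1 and 2, against 0.0119 and 0.0135 in Aff3+/- replicates 1 and 2, with 3 of its 4 markers not well above background on any array. The 4 plasma cell markers summed to 46.3 and 50.3 in Aff3-/- cells, against 40.1 and 45.7 in Aff3+/- cells, higher on both replicate 2 arrays. Most of this sum came from Xbp1, and another of the markers, Prdm1, is also in the list of AP-1 targets. The red cell sum was 0.0764 and 0.0225 in Aff3-/- replicates 1 and 2, against 0.0313 and 0.0395 in Aff3+/- replicates 1 and 2. It was thus lower on replicate 2 in Aff3-/- cells only, and 2 of its 4 markers were well above background on no array. The part of any of these cell types in the Fos, Fosb and Fosl2 values was not tested.

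The JUN genes were steadier than the FOS genes, Junb the least so. Jun itself, the partner in the classic Fos-Jun dimer, had 5630.1 and 5448 units in Aff3-/- replicates 1 and 2, against 4687 and 5837 in Aff3+/- replicates 1 and 2. Both Aff3-/- arrays lay between the Aff3+/- arrays after scaling, and the difference was +0.09 ± 0.13 (log2, SE), with an interval of 0.835-fold to 1.36-fold.

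Jund, often the most constant of the JUN genes, had 41066 and 39355 units in Aff3-/- cells and 37914 and 38436 in Aff3+/- cells, for replicates 1 and 2 in each. Both Aff3-/- arrays were the higher ones, by a small margin of 0.04 (log2) between the closest arrays. The difference was +0.08 ± 0.11 (SE), with an interval of 0.865-fold to 1.30-fold.

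Junb, an early gene whose protein can restrain Jun activity, had 254 and 338 units in Aff3-/- replicates 1 and 2, against 217 and 284 units in Aff3+/- replicates 1 and 2. It shared the array order of Fosl2, with a narrower span of 0.63 (log2). A span at least as wide was seen in 14.9% of all features. The genotypes overlapped in 1 pair of arrays, and the difference was +0.25 ± 0.21 (SE). Within replicate 1 it was +0.18 and within replicate 2 +0.33.

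Batf, a partner of Jun proteins at IRF composite sites, was the least variable of the 9 genes. It had 31136 and 28260.3 units in Aff3-/- replicates 1 and 2, against 28286 and 29466.5 units in Aff3+/- replicates 1 and 2. The span over the arrays was 0.11 (log2), and 90.4% of features spanned at least as much. With 10 spots per array, whose SD was 0.03 to 0.06, the genotypes differed by +0.05 ± 0.11 (SE). The 95% interval ran from 0.839-fold to 1.28-fold.

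Batf3, known for its role in cross-presenting dendritic cells, showed the clearest separation. It had 1905 and 1592 units in Aff3-/- replicates 1 and 2, against 1177 and 1463 units in Aff3+/- replicates 1 and 2. Both Aff3-/- arrays lay above both Aff3+/- arrays, with 0.19 (log2) between the closest ones. On the log2 scale Batf3 averaged 0.41 ± 0.16 in Aff3-/- cells and -0.004 ± 0.16 in Aff3+/- cells (SD, n = 2 each). The difference was +0.42 ± 0.15 (SE), or 1.34-fold with a 95% interval of 1.01-fold to 1.76-fold. Its unadjusted p of 0.044 did not hold over the 20632 features (limma, adjusted p = 1.00). The genotypes differed by +0.64 within replicate 1 and by +0.19 within replicate 2.

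Atf3, a stress-induced factor that pairs with Jun proteins and often represses, had 4562 and 5185 units in Aff3-/- replicates 1 and 2, against 4396 and 4154 units in Aff3+/- replicates 1 and 2. Replicate 1 was nearly equal in the genotypes (+0.002, log2), and the replicate 2 arrays differed by +0.39. The separation of the genotypes was therefore marginal, and in the authors' deposited value table the arrays of the genotypes overlapped. The overall difference was +0.20 ± 0.14 (SE), from 0.883-fold to 1.49-fold.

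**Figure D3:**
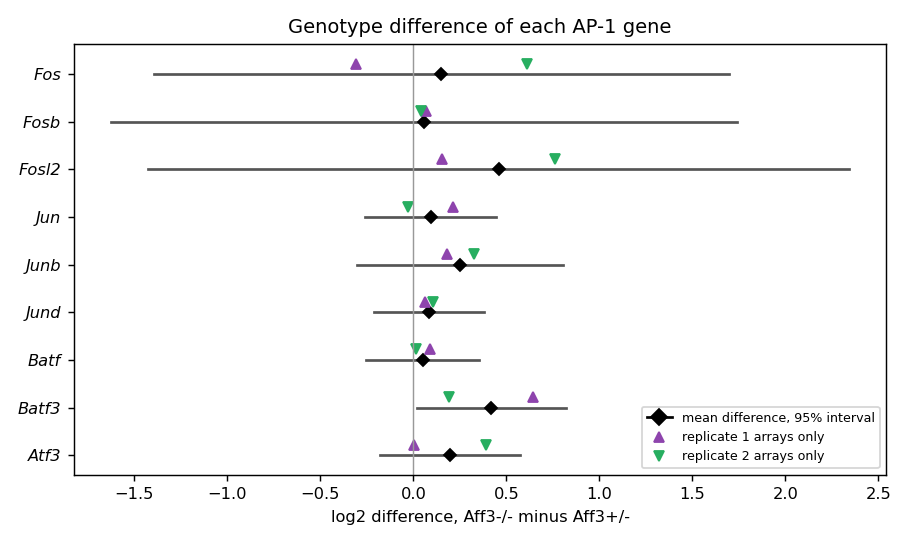
Log2 difference, Aff3-/- minus Aff3+/-, of each AP-1 gene with its 95% interval from limma (diamonds and lines), and the differences between the replicate 1 arrays and between the replicate 2 arrays (triangles). Intervals of Fos, Fosb and Fosl2 are each over 3 log2 units wide, and the interval of Batf3 starts just above 0.

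Other bZIP factors that pair with AP-1 proteins or bind related sites gave 13 tested genes of 16, none past the adjusted threshold. Of these 10 were higher and 3 lower in Aff3-/- cells, 3 and 1 without overlap. Over all features 45.5% were positive, and 8.35% were higher and 11.2% lower without overlap. The median of the 13 was +0.19 (log2), but it was -0.05 without Aff3-/- replicate 2. For the 7 of them in the authors' deposited table it was -0.07. Nfil3, a repressor induced by IL-4, differed by +0.43 ± 0.14 (SE) and Fosl1, which encodes Fra-1, by +0.27 ± 0.12, both without overlap. Fosl1 was dim, at -6.51 and -6.49 in Aff3-/- replicates 1 and 2, against -6.72 and -6.84 in Aff3+/- replicates 1 and 2. With normexp background correction the Fosl1 difference was +0.13 and its arrays overlapped. Bach2, a repressor of plasma cell differentiation, differed by -0.15 ± 0.12, and by -0.27 for its other probe.

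Several of these factors also spread widely between replicates. Ddit3, which encodes the stress factor CHOP, had log2 values of 2.21 and 0.54 in Aff3-/- replicates 1 and 2, against 1.58 and 0.49 in Aff3+/- replicates 1 and 2. Cebpb, a C/EBP factor of inflammation and stress, had 1.52 and 0.13 in Aff3-/- cells, against 0.84 and -0.08 in Aff3+/- cells. Jdp2, a repressor that pairs with Jun, had -0.89 and -1.64 in Aff3-/- cells, against -1.34 and -1.89 in Aff3+/- cells. These 3 genes, like Fosb, were lower on the replicate 2 arrays of both genotypes, an order seen in 33.2% of all features.

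Of the 13 factors 6 were higher on both replicate 2 arrays instead, as Fos and Fosl2 were: Batf2, Maff, Mafg, Mafk, Bach1 and Nfe2l2. That order was common, at 31.1% of all features. Batf2, a Batf relative, had -4.44 and -3.83 in Aff3-/- replicates 1 and 2, against -4.65 and -4.01 in Aff3+/- replicates 1 and 2. Maff, which encodes a small Maf protein, had the widest span of the 6. It had -3.66 and -2.55 in Aff3-/- replicates 1 and 2, against -3.72 and -3.19 in Aff3+/- replicates 1 and 2. Of the 9 AP-1 genes 3 spanned at least 1 (log2) over the arrays, as did 4 of the 13 other bZIP factors and 4.39% of all features.

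**Figure D4:**
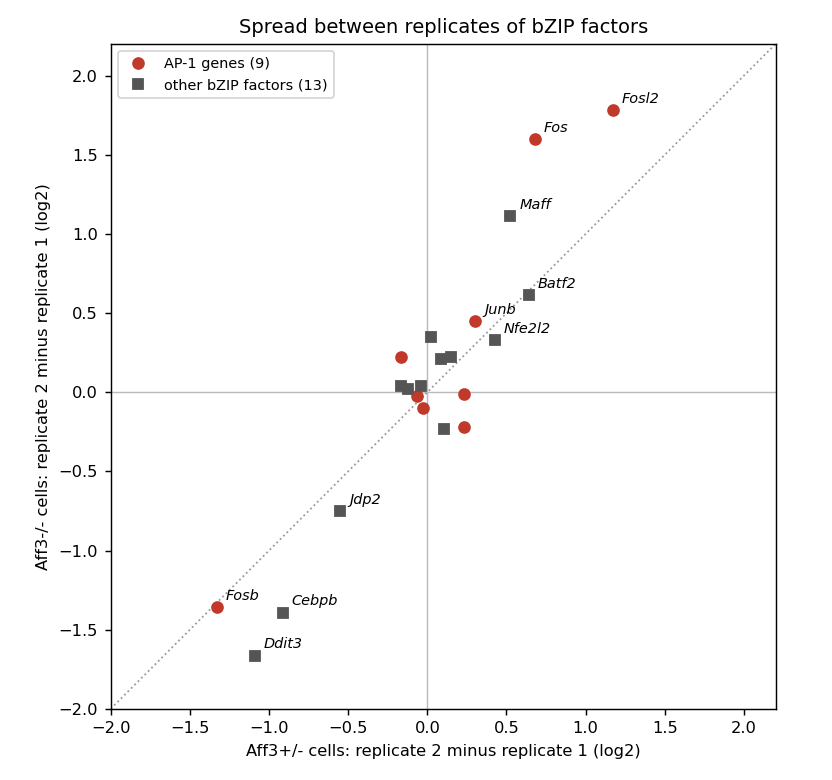
Replicate 2 minus replicate 1 (log2) in Aff3-/- cells (vertical axis) against the same in Aff3+/- cells (horizontal axis) for the 9 AP-1 genes (circles) and the 13 other bZIP factors tested (squares), with a dotted line of equality. Fos, Fosl2 and Maff lie to the upper right, with Batf2 also raised on both axes (+0.61 and +0.64), and Fosb, Cebpb, Ddit3 and Jdp2 lie to the lower left.

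The IRF partners of Batf stood close to 0, with Irf4 at +0.11 ± 0.13 (log2, SE) and Irf8 at -0.02 ± 0.13. The 12 transcription factors that switch on early genes had a median of -0.005, with 6 higher and 6 lower, 2 and 0 without overlap. Among all features 8.35% were higher and 11.2% lower without overlap. Mrtfb, a coactivator of SRF, differed by +0.18 ± 0.11 without overlap (-0.02 and +0.63 for its other probes), Elk4, an SRF partner, by -0.23 ± 0.18, and the CREB relative Crem by +0.11 ± 0.16.

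Of 17 genes of the MAP kinase cascades that feed AP-1, 7 were higher and 10 lower, 1 and 1 without overlap, with a median of -0.02. The shares without overlap over all features were 8.35% higher and 11.2% lower. Mapk3, which encodes ERK1, differed by -0.18 ± 0.13 (log2, SE) without overlap and by -0.17 for its other probe. Map2k1, the ERK kinase MEK1, differed by +0.17 ± 0.17, and Rps6ka5, the nuclear kinase MSK1, by -0.16 ± 0.17. All 6 genes for the turnover of Fos and Jun transcripts or proteins were higher, against 45.5% of all features. Of the 6, 3 were higher without overlap, against 8.35% of all features. The differences were small, with a median of +0.06. These genes include Fbxw7 (+0.12 ± 0.11, but -0.01 for its other probe) and Itch (+0.08 ± 0.11), both parts of ubiquitin ligases that act on Jun proteins. Zfp36l1, an mRNA decay factor, differed by +0.07 ± 0.11, and by +0.04 with overlap under normexp.

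Textbook AP-1 or Batf target genes gave 16 tested of 19, with 6 higher and 10 lower, 2 and 2 without overlap, and a median of -0.06. Without overlap, 8.35% of all features were higher and 11.2% lower. The cytokine Il6 differed by +0.47 ± 0.13 (log2, SE) and the growth factor Csf2 by -0.44 ± 0.13, in opposite directions and each without overlap. With normexp background correction Csf2 was -0.24, still without overlap. Fasl, the ligand of the death receptor Fas, differed by -0.37 ± 0.24 and was well above background on 3 of 4 arrays (-0.14 with normexp). Over all these lists, none of the 66 genes tested passed the adjusted threshold, and 3 of them (Nfil3, Il6 and Csf2) had an unadjusted p under 0.05, where 2.04% of all features did.

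The genes whose 4 values lay nearest to each variable AP-1 gene were sought among 13412 other named genes well above background on all arrays, by the root mean square distance between centred log2 values. Nearest to Fos were the interferon-induced chemokine Cxcl10 (0.08), Bcl6b (0.08) and the neurofilament gene Nefh (0.10). Cxcl10 had 0.94 and 2.74 in Aff3-/- replicates 1 and 2, against 1.36 and 2.09 in Aff3+/- replicates 1 and 2. Nearest to Fosb were the receptor kinase Kit (0.08), the glutathione-degrading enzyme Chac1 (0.09) and Prom1 (0.11). Nearest to Fosl2 were Rbpms2 (0.15), Hpdl (0.16) and Aebp1 (0.16). Junb lay nearest to Fdxacb1 (0.02), Akap1 (0.03) and Exosc7 (0.03), and Batf3 to Clec4g (0.02), Paqr8 (0.02) and Tnfsf4 (0.03), which encodes OX40 ligand. With 4 arrays such closeness is a description only. Between members, Fos and Fosl2 lay 0.24 apart and Fosb and Fosl2 1.43 apart.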

How the data were processed

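Gene expression was measured on 4 one-colour Agilent arrays. The deposited scanner files give a processed signal and a median signal per spot as intensity on a linear scale, background-subtracted and detrended for the former, per the file headers, and were made with Agilent Feature Extraction 10.7.1.1, per the submitters' processing notes. The files also hold flags of 0 or 1. A second deposited table of log2 values is centred per row on the median of the 4 arrays; set against the scanner files, it has the same direction and, within rounding, the same scaling, and how its 25372 rows were chosen is unknown. Its column medians were -0.04 and 0.02 for Aff3-/- replicates 1 and 2, and 0.13 and -0.03 for Aff3+/- replicates 1 and 2.

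Control spots (1377 of 44397) and outlier spots were left out. Each array's 75th percentile was subtracted from its log2 processed signal, and spots of a probe were averaged. A probe was kept if both arrays of either genotype had it well above background, and a gene was its probe of highest mean signal. Symbols came from a RefSeq table (GRCm38.p6), matched for 26581 probes by accession and for 11 by symbol or synonym, with 12837 unnamed. Promoter sequences are from RefSeq. Aff3-/- minus Aff3+/- was fitted over all 20632 features with limma 3.58.1 in R 4.3.3 (lmFit, eBayes without trend), with a threshold of 0.05 after Benjamini-Hochberg adjustment. The fit was tested on simulated data. No arrays were identical. Levels of different probes were not compared between genes; marker sums add linear signals of several probes.

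The members and lists were chosen with earlier results of these data known. Named genes were all members, the 3 of smallest p in each list and the 3 nearest in pattern to each member that spanned at least 0.5; Ddit3, Cebpb, Jdp2, Maff and the other bZIP factors that differed between replicate numbers were added after their values were seen. Other settings tried were normexp, quantile normalization, the deposited table, 2 other filters, probe means and a replicate block. A variance trend with robust estimation was also tried, as was leaving out each array. The normexp alternative used the median signal, since the files hold no mean signal column. It added an offset of 50 units to the corrected signal, which by construction narrows the log2 differences of dim probes.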

Additional observations from a re-analysis of the deposited data

How the results depend on the processing

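No AP-1 gene and no listed gene passed the adjusted threshold (limma) under any of the alternatives run, nor did any feature. The number of features at an unadjusted p under 0.05 was 420, against 807 without the filter on dim probes, 233 with a variance trend, 1461 with the replicate number as a block, and 298 to 963 when an array was left out. The block left the member differences as they were, and the lowest adjusted p among them was 0.70 (Junb and Batf3). Equal replicate numbers deviated together across features (correlation 0.56), but with 2 numbers and nothing in the labels this does not establish a pairing. The count of members higher without overlap was 3, but 0 in the deposited values, which list 2 of the 9 (Fos and Atf3), and 5 to 6 when an array was left out, where a lone array separates more easily; the count lower without overlap was then 0 to 1. The median member difference ran from +0.10 to +0.31 when an array was left out.

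Single differences turned sign as follows. Leaving out an array moved Fos between -0.65 and +0.95, Fosb between -0.62 and +0.73, Fosl2 between -0.43 and +1.35, Jun between -0.023 and +0.21, Batf between -0.0019 and +0.10, Irf4 between -0.0063 and +0.22, Irf8 between -0.10 and +0.058, Crem between -0.057 and +0.27 and Map2k1 between -0.0095 and +0.34. Fos was lowest, at -0.65, when Aff3-/- replicate 2 was left out. It was -0.19 when Aff3+/- replicate 1 was. A lone array was taken to vary like the other group. Fosb was -0.025 with normexp background correction, and Fbxw7 was -0.013 in the deposited values, where another probe stands for it; for Fosb the cause was not tested. Batf3 (+0.30 to +0.53), Junb (+0.03 to +0.48), Jund (+0.05 to +0.12) and Atf3 (+0.09 to +0.31) stayed positive without each array. Normexp also made the differences of Fos (+0.09), Fosl2 (+0.21), Fosl1 (+0.13), Csf2 (-0.24), Fasl (-0.14), Zfp36l1 (+0.04), Fbxw7 (+0.08), Rps6ka5 (-0.10) and Irf8 (-0.0026) smaller by over 1.5 times. Its offset of 50 units narrows the differences of dim probes by construction, so for dim probes normexp is no independent check. Zfp36l1, Irf8 and Fbxw7 were not dim, so that limit does not cover them. Their scaled log2 signals over the arrays were 4.34 to 4.46, 5.51 to 5.68 and 1.00 to 1.18. How much of each change came from the offset was not tested. The 2 arrays per genotype limit the precision.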
